A study of Mus musculus with 24 samples.

Results

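Epithelial cells of mouse lung organoids that had received tanimilast with formoterol, named EpiTF, were compared with cells of organoids that had received vehicle, named EpiVeh, over all genes. Members were chosen by group: 3 EpiTF and 3 EpiVeh libraries, 6 of the 24 in the series, with mice 1, 2 and 3 giving a library to each group. Each of the 6 was labelled wild type and came from Epcam-positive cells of lung organoids, small cell bodies that form in Matrigel from primary lung epithelial cells of untreated mice mixed with CCL206, a mouse lung fibroblast line. For the first 14 days both groups had vehicle in place of cigarette smoke extract (CSE). The organoids were then taken apart and the epithelial cells were replated with fresh CCL206 cells. EpiTF cultures next received 100 nM tanimilast together with 100 nM formoterol and EpiVeh cultures vehicle, and RNA was taken on day 28. The labels give no strain, age or sex, and no library of a single drug is among the 24, so the parts of the 2 drugs cannot be told apart. The labels give the mouse number as the batch, taken here to be the donor animal of the epithelial cells.

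Formoterol is a long-acting beta agonist, a bronchodilator that raises cyclic AMP in airway cells through adenylyl cyclase. Tanimilast inhibits phosphodiesterase 4 (PDE4), the enzyme family that breaks cyclic AMP down, so both agents act on the same messenger. Cyclic AMP frees the catalytic subunits of protein kinase A, which phosphorylate CREB, a transcription factor that binds the cyclic AMP response element in promoters of immediate early and feedback genes. Beta agonists and PDE4 inhibitors are used in chronic obstructive pulmonary disease, in which smoke-damaged epithelium repairs poorly.

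Each of the 6 libraries held between 35871849 and 47534709 counts, so that 1 part in 1000000 of a library was at least 35.9 counts, and 4.15 to 5.02% of the counts were mitochondrial. Levels are given as CPM, counts in 1000000 scaled further by edgeR's TMM method. Epcam, the protein that defines the fraction, was at 1379, 1245 and 1722 CPM in EpiTF and 1355, 895 and 1681 CPM in EpiVeh libraries. Ptprc, which marks blood cells, had 3 counts or fewer in each of the 6. EpiTF library 2 stood apart: Yam1, Lars2, Gm26917, AY036118 and Rn7sk, features picked after their values were seen, took 2.46% of its counts, against 0.0234 to 0.0405% in the other 5 and at most 0.226% in the other 23. Rn7sk, a nuclear RNA made without a poly-A tail, was at 2.08, 40.7 and 3.17 CPM in EpiTF and 0.956, 0.944 and 1.57 CPM in EpiVeh libraries. The calls and their sizes are therefore also given without mouse 2.

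How many genes passed the test depended on whether libraries were paired by mouse. Over all 12 epithelial libraries as 4 group means, edgeR's quasi-likelihood test with Benjamini-Hochberg adjustment called 0 of 18038 genes at an adjusted p under 0.05 (0%), with unadjusted p under 0.05 for 213 genes higher and 260 lower in EpiTF. With mouse as a block in that fit, 1 gene was called, Pyy (0.00554%), and DESeq2 without the block called 5 of 31532 (0.0159%): Pyy, Bmp2, Gm28048, 8430408G22Rik and NewGene_6409. The blocked fit called 0 genes without any 1 mouse, and without EpiTF library 2 it called Gm14036 and not Pyy. A fit of the 6 libraries alone, paired by mouse, called 110 of 17095 (0.643%), of which 65 were higher (0.38%) and 45 lower (0.263%) in EpiTF. Genes are written as having risen or fallen where this paired fit called them, and its log2 fold changes are given with standard errors (SE). The paired fit was planned as an alternative only. The planned main fit was the 12-library fit without the block, which called 0 genes, and wording genes by the paired fit was not planned. All 110 moved the same way in 3 of 3 mice, and in 59 of them the EpiTF and EpiVeh libraries did not overlap. Among all 18038 genes of the 12-library fit, 2872 were higher with the drugs in all 3 mice and 3087 in none. In 3.74% of all genes every EpiTF library lay above, and in 3.8% below, every EpiVeh library. The 110 were picked by a test on these same libraries, so both counts only describe them. The paired fit has 2 residual degrees of freedom and leans on a spread shared across genes: it called 34 genes without mouse 1, 14 of them among the 110, 341 without mouse 2, 109 of them among the 110, and 1 without mouse 3, Scgb3a2. Without mouse 2 the log2 fold changes of the 110 were 0.739 to 1.22 times those with it. Pyy, for example, stood at 2.31, Ctse at 0.89, Areg at 0.38, Muc5ac at 1.01 and Krt5 at -0.53. The libraries of mice 1 and 3 also helped to pick the 110. These sizes and the 109 shared calls therefore describe the 110 and are no separate test of them. The calls had a median size of 0.53 on the log2 scale, 52 under 0.5 and 12 over 1.

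**Figure D1:**
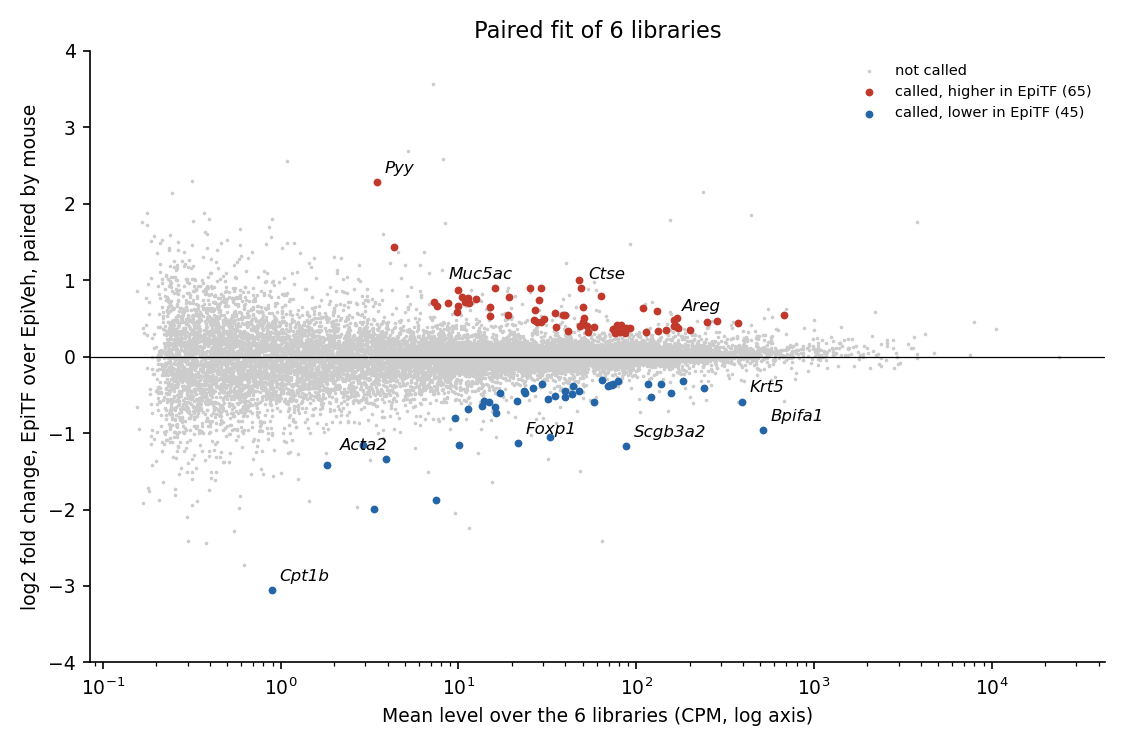
Each point is a gene of the paired fit of 6 libraries, with its mean level (CPM, log axis) across and its log2 fold change, EpiTF over EpiVeh, upward. Of the coloured points, 65 were called higher (red) and 45 called lower (blue) in EpiTF, from Pyy at 2.28 to Cpt1b at -3.05, and uncalled genes at low levels had folds as large.

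Since both drugs act on cyclic AMP, the promoters of the 3 called CREB target genes and of Pyy, the gene that the 12-library fit with the mouse block called, are shown first. The sequences are RefSeq windows of the 250 bases before the annotated start (assembly GRCm38.p6), 5′ to 3′ on the gene's strand. Capitals mark the 5-base site of the cyclic AMP response element, TGACG or its reverse complement CGTCA; where these overlap as TGACGTCA, the full palindrome is in capitals. Areg lies at chr5:91139349-91139598 (plus strand), Dusp1 at chr17:26508473-26508722 (minus strand), Nr4a2 at chr2:57124004-57124253 (minus strand) and the first of 2 annotated Pyy windows at chr11:102107833-102108082 (minus strand).
Areg: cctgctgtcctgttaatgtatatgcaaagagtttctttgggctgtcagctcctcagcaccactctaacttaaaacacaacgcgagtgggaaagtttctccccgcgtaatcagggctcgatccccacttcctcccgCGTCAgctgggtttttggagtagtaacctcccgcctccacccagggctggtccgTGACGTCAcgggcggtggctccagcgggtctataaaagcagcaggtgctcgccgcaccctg
Dusp1: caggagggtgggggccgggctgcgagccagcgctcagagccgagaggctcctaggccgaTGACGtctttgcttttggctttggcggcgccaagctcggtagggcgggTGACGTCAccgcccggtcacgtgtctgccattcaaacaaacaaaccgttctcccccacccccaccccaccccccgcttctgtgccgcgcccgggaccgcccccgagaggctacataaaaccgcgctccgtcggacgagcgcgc
Nr4a2: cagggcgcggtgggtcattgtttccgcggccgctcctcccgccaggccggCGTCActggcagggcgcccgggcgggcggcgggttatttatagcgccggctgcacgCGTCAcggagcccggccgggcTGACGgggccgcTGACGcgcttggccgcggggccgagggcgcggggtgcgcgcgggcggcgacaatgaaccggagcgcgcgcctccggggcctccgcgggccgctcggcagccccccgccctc
Pyy: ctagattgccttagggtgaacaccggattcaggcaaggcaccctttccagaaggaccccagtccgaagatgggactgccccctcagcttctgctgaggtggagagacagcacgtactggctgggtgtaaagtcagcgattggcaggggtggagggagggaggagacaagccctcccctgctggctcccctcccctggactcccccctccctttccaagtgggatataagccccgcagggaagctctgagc

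The Areg window held the full palindrome, starting 61 bases before the annotated start, and a further 5-base site 115 bases before it. Dusp1 held the full palindrome 143 bases and another 5-base site 191 bases before its start. Nr4a2 held the 5-base site 4 times, starting 200, 144, 123 and 111 bases before the start, and no palindrome. Neither Pyy window held either motif. Of 32851 RefSeq windows of this length, 508 (1.55%) held the palindrome and 5836 (17.8%) a 5-base site on either strand. Among 23 windows of 19 genes in the list of cyclic AMP and CREB target genes, 3 held the palindrome (13%) and 17 a 5-base site (73.9%); that list is made of genes known for such elements.

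The peptide hormone gene Pyy, known from gut endocrine cells, rose the most of the called genes. It was at 6.29, 5.45 and 5.56 CPM in EpiTF and 1.05, 1.16 and 1.36 CPM in EpiVeh libraries. The lowest EpiTF library was 4 times the highest EpiVeh library, and the log2 fold change was 2.28 ± 0.19 (adjusted p = 0.00109 in the paired fit, 0.0123 in the 12-library fit with mouse as a block and 0.0722 without it). Pyy was likewise at 6.02, 7.67 and 9.74 CPM with the drugs after CSE (EpiCSETF), against 1.43, 1.55 and 2.67 CPM after CSE alone (EpiCSE), 2.05 ± 0.26 on the log2 scale. Of 26 neuroendocrine and enteroendocrine genes, 5 had counts enough to test in the 12-library fit and 4 in the paired fit, and Pyy alone was called. Chga, the granule protein that defines neuroendocrine cells, had 0 counts in each EpiTF library, and Gcg, Grp and Sst, which encode peptide hormones, had 0 in all 6. Uchl1, also found in neurons and fibroblasts, was at 13.9, 18.1 and 12.4 CPM in EpiTF and 15.0, 28.2 and 15.2 CPM in EpiVeh libraries, -0.35 ± 0.11 on the log2 scale (adjusted p = 0.243).

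**Figure D2:**
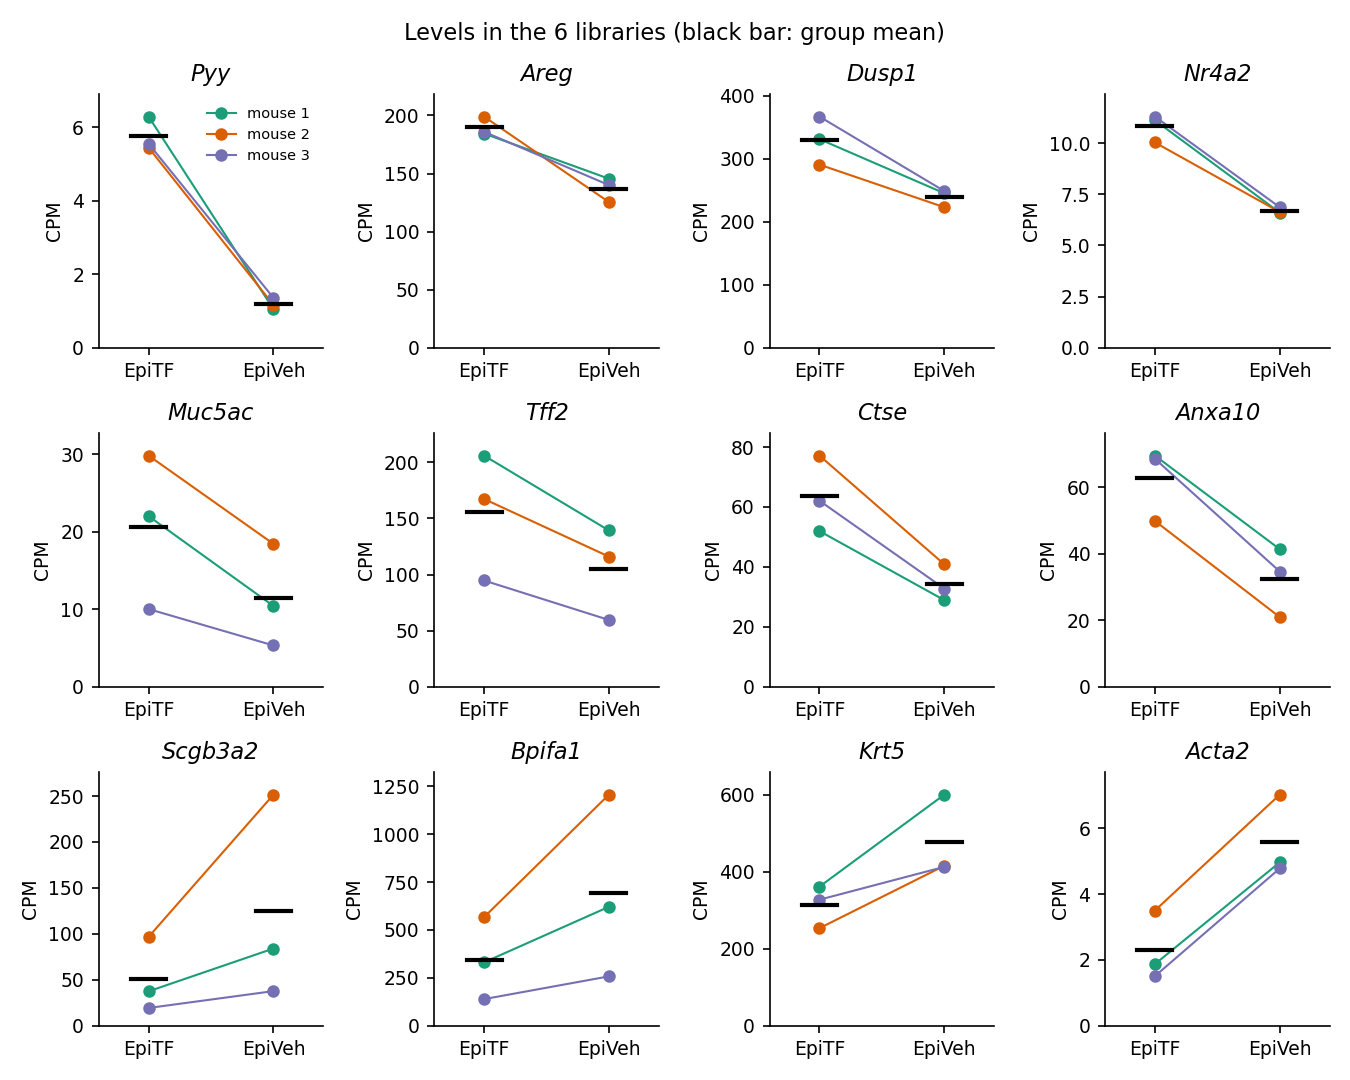
Levels (CPM, axis from 0) of 12 genes in the 3 EpiTF libraries, left, and the 3 EpiVeh libraries, right, with lines joining the libraries of a mouse and black bars at group means. In each panel all 3 lines slope the same way, and in Muc5ac, Tff2, Scgb3a2 and Bpifa1 the libraries of each group lie farther apart than the group means. In Krt5 this holds for the EpiVeh libraries.

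PDE4 genes, which encode the target of tanimilast, did not pass the threshold. Pde4b, itself a CREB target in feedback, was at 22.5, 26.7 and 32.4 CPM in EpiTF and 15.7, 16.9 and 28.3 CPM in EpiVeh libraries. That was higher in each mouse, by 0.46 ± 0.09 on the log2 scale, and not called (adjusted p = 0.0743 in the paired fit). Pde4d and Pde4a stood at 0.11 ± 0.10 and -0.06 ± 0.11, and Pde4c had under 10 counts in each library. Of 15 adrenoceptor and phosphodiesterase genes tested, none was called in either fit. Among 29 genes of adenylyl cyclases, protein kinase A and cyclic AMP handling, none was called either. Their median log2 fold change was -0.06 in the 12-library fit, against -0.01 over all genes tested. Of the 29, 8 lay above 0, with 6 higher and 10 lower in all 3 mice. In 3 every EpiTF library lay below every EpiVeh library (10.3%) and in 0 above, against 3.8 and 3.74% of all genes. The members were listed with results of these data known, so these counts are a description. Gnas, the stimulatory G protein subunit, had 0.08 ± 0.07, Prkaca, a catalytic subunit of protein kinase A, -0.06 ± 0.05, and Creb1 0.08 ± 0.06.

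Of the CREB target genes, 3 rose with the drugs, while several classical feedback genes had folds near 0. Nr4a2, an orphan nuclear receptor, was at 11.1, 10.0 and 11.3 CPM in EpiTF and 6.60, 6.63 and 6.87 CPM in EpiVeh libraries, and rose by 0.69 ± 0.11 on the log2 scale (adjusted p = 0.0302). Areg encodes amphiregulin, a ligand of the EGF receptor. It was at 184, 199 and 186 CPM in EpiTF and 146, 125 and 140.0 CPM in EpiVeh libraries, and rose by 0.48 ± 0.07 (adjusted p = 0.0180). Dusp1, a phosphatase that switches off MAP kinases and carries the palindrome printed above, was at 331, 291 and 367 CPM in EpiTF and 245, 223 and 249 CPM in EpiVeh libraries. Its rise was 0.46 ± 0.06 (adjusted p = 0.0138), and for these 3 genes no EpiVeh library reached an EpiTF library. All 3 were also higher with the drugs after CSE, in libraries that the paired fit did not use: Nr4a2 by 0.82 ± 0.16, Areg by 0.47 ± 0.10 and Dusp1 by 0.60 ± 0.13 (unadjusted p = 0.000250, 0.000584 and 0.000605 in the 12-library edgeR fit). After adjustment that fit called 0 of 18038 genes for the drugs after CSE.

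Ptgs2, which encodes the prostaglandin enzyme COX-2, was at 599, 606 and 623 CPM in EpiTF and 445, 338 and 530.5 CPM in EpiVeh libraries, 0.50 ± 0.11 on the log2 scale (adjusted p = 0.158). Nr4a1 had 0.54 ± 0.10 (adjusted p = 0.0865) and Fos 0.29 ± 0.07 (adjusted p = 0.138), and these, too, were higher in each mouse without being called. By contrast Crem, Sik1 and Per1, textbook CREB targets, had log2 fold changes of 0.01 ± 0.13, 0.02 ± 0.06 and 0.02 ± 0.07. Over the 21 members tested, 3 were called higher and 0 lower. In 8 every EpiTF library lay above every EpiVeh library (38.1%) and in 1, Btg2, below, against 3.74 and 3.8% of all genes. The median log2 fold change of the list was 0.10, and that of all genes -0.01. The members were listed with results of these data known, so this count is a description.

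**Figure D3:**
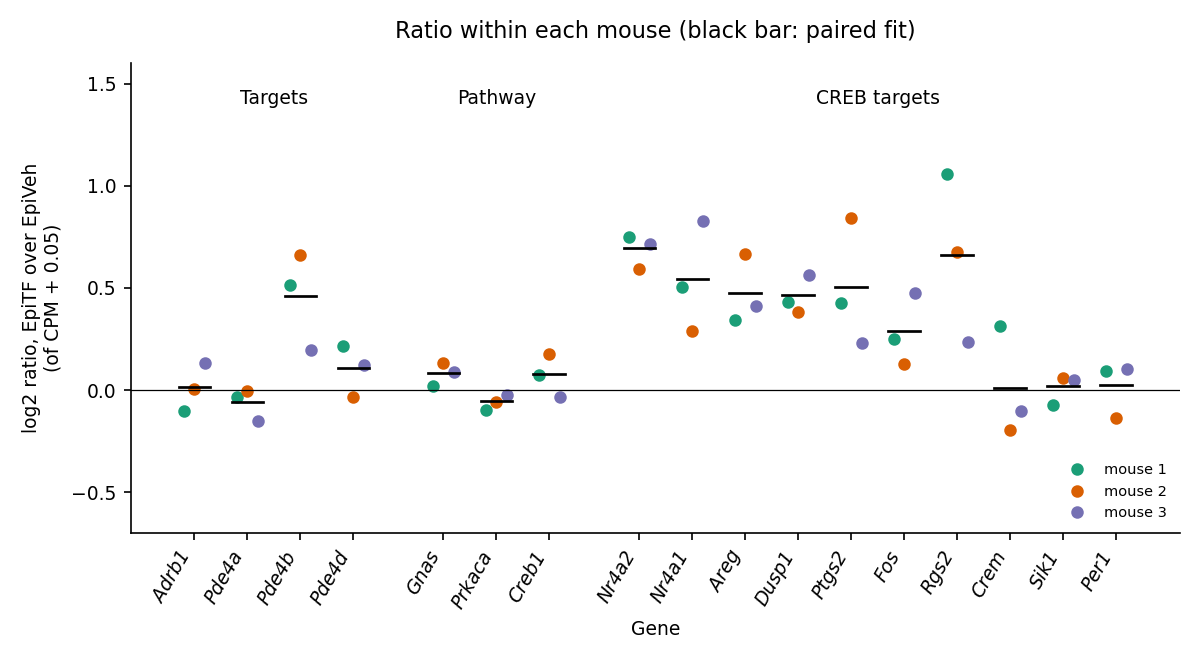
Log2 ratios of EpiTF over EpiVeh within each mouse (coloured points, of CPM plus 0.05) for drug targets, pathway genes and CREB target genes, with black bars at the paired fit. Nr4a2, Nr4a1, Areg, Dusp1, Ptgs2, Fos, Rgs2 and Pde4b lie above 0 in all 3 mice, while Crem, Sik1, Per1 and Adrb1 have points on both sides.

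Of a list of foregut-type secretory genes, 3 rose with the drugs. Ctse, the aspartic protease cathepsin E, was at 51.9, 77.1 and 62.1 CPM in EpiTF and 28.9, 40.8 and 32.7 CPM in EpiVeh libraries, a rise of 0.90 ± 0.06 (adjusted p = 0.000504). Anxa10, an annexin of gastric epithelium, was at 69.6, 49.9 and 68.6 CPM in EpiTF and 41.4, 20.9 and 34.7 CPM in EpiVeh libraries and rose by 1.00 ± 0.09 (adjusted p = 0.00548). In both genes the groups did not overlap. Tff2, a trefoil peptide secreted with mucins, was at 206, 167 and 94.7 CPM in EpiTF and 139, 116 and 59.5 CPM in EpiVeh libraries. The groups overlapped, but each mouse was higher with the drugs, by 0.59 ± 0.05 (adjusted p = 0.00169). These 3 were the calls among the 8 list members tested in the paired fit, which called 0.643% of all genes. In the 12-library fit 9 were tested and 6 lay above 0, with a median of 0.39 and a range from -1.16 to 0.96. The summed level of the list was 2176, 2172 and 2336 CPM in EpiTF and 2211, 2118 and 2021 CPM in EpiVeh libraries. That was lower with the drugs in mouse 1 and higher in mice 2 and 3. The members were listed with results of these data known, so these counts are a description.

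Muc5ac, a gel-forming mucin of goblet cells, was at 22.0, 29.8 and 10.0 CPM in EpiTF and 10.4, 18.4 and 5.32 CPM in EpiVeh libraries and rose by 0.90 ± 0.10 (adjusted p = 0.00525). Muc5b, the other gel-forming airway mucin, had a larger difference that was not called. It was at 316, 293 and 99.9 CPM in EpiTF and 74.5, 114 and 26.9 CPM in EpiVeh libraries, 1.78 ± 0.18 on the log2 scale (adjusted p = 0.100), with log2 ratios of 2.09, 1.36 and 1.89 in the 3 mice. After CSE both mucins had folds of the same sign, 1.50 ± 0.52 for Muc5ac and 2.13 ± 0.54 for Muc5b. Spdef, the transcription factor of goblet cell fate, was low, at 2.13, 2.09 and 1.37 CPM in EpiTF and 2.66, 2.42 and 1.55 CPM in EpiVeh libraries. The tethered mucin Muc4 had 0.28 ± 0.07 (adjusted p = 0.122), and Agr2, which folds mucins, 0.59 ± 0.22 (adjusted p = 0.541). Among 15 mucin and goblet cell genes 2 were called higher and 1 lower, the airway secretory protein gene Bpifb1, and 11 lay above 0. Their median log2 fold change was 0.23 in the 12-library fit and 0.05 with a fibroblast covariate and mouse as a block.

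Among the 65 risen genes that are in no such list, 7 are given here. All but Olfm4 were chosen after their values were seen, so they stand for no group. Plet1, a surface protein of epithelial progenitors, was at 35.2, 22.8 and 53.6 CPM in EpiTF and 18.2, 10.7 and 33.9 CPM in EpiVeh libraries, a rise of 0.90 ± 0.09. Slpi, an inhibitor of leukocyte proteases, was at 31.7, 40.3 and 25.2 CPM in EpiTF and 15.4, 26.6 and 12.3 CPM in EpiVeh libraries and rose by 0.89 ± 0.10. Olfm4, a glycoprotein of intestinal crypts, rose by 0.74 ± 0.09 without overlap of the groups. Krt23, a keratin of glandular epithelium, rose by 0.64 ± 0.07, and Fut2, which builds the H antigen on mucins, by 0.75 ± 0.11. Vnn1, a pantetheinase, rose by 0.78 ± 0.09, and Ceacam1, an adhesion molecule, by 0.55 ± 0.07. The adjusted p of these 7 genes lay between 0.00271 and 0.0184.

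Scgb3a2, Bpifa1, Bpifb1 and Hp, which encode secreted proteins of club cells and airway fluid, fell with the drugs, and their levels differed widely between mice. Other genes of secreted proteins, Slpi, Tff2 and Muc5ac, rose, as given above. Scgb3a2, a secretoglobin of club cells, was at 37.4, 96.7 and 19.3 CPM in EpiTF and 84.0, 252 and 37.6 CPM in EpiVeh libraries. It fell by 1.18 ± 0.08 on the log2 scale (adjusted p = 0.00109) and was the call that remained without mouse 3. Bpifa1, an antimicrobial protein of airway fluid, was at 331, 567 and 139 CPM in EpiTF and 621, 1207 and 258 CPM in EpiVeh libraries. Its fall was 0.96 ± 0.07 (adjusted p = 0.000514), and its relative Bpifb1 fell by 0.66 ± 0.10 (adjusted p = 0.0184). Hp, haptoglobin, was at 100.1, 205 and 87.7 CPM in EpiTF and 135, 301 and 119 CPM in EpiVeh libraries and fell by 0.47 ± 0.06 (adjusted p = 0.00564). In these 4 genes mouse 2 held the highest level in both groups. With a fibroblast covariate and the mouse block over 12 libraries (described with the fibroblast genes) their log2 fold changes were nearer 0: -0.71 ± 0.77 for Scgb3a2, -0.34 ± 0.25 for Bpifa1, -0.15 ± 0.17 for Bpifb1 and -0.17 ± 0.37 for Hp.

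Scgb1a1, the defining club cell gene, was not called: it was at 14.7, 31.1 and 11.3 CPM in EpiTF and 22.3, 85.7 and 13.5 CPM in EpiVeh libraries, -0.80 ± 0.33 on the log2 scale (adjusted p = 0.600). Scgb3a1 had -0.52 ± 0.09 (adjusted p = 0.0776) and Cyp2f2, a cytochrome P450 of club cells, -0.21 ± 0.14 (adjusted p = 0.707). None of the 12 club cell genes tested lay above 0 in the 12-library fit, where their median was -0.55, and 6 were lower in all 3 mice. The median depended on 1 library: without EpiVeh library 2, and with EpiTF library 2 of the same mouse kept, it was 0.13. After CSE the same list had a median of 0.17. Its summed level was 5326, 7711 and 4434 CPM in EpiTF and 5273, 10627 and 3876 CPM in EpiVeh libraries. That was lower with the drugs in mouse 2 and higher in mice 1 and 3.

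Of the basal cell genes 1 was called, and most of the others had folds below 0. Krt5, the keratin of airway basal cells, was at 362, 254 and 328 CPM in EpiTF and 601, 416 and 413 CPM in EpiVeh libraries, without overlap. It fell by 0.59 ± 0.09 (adjusted p = 0.0241). Trp63, the master regulator of basal cells, was at 79.7, 74.6 and 69.7 CPM in EpiTF and 101, 93.9 and 80.2 CPM in EpiVeh libraries, also without overlap, -0.29 ± 0.05 on the log2 scale and just outside the threshold (adjusted p = 0.0548). Krt14, the partner keratin of Krt5, had -0.32 ± 0.06 (adjusted p = 0.0511). Of 11 basal cell genes, 8 were lower in all 3 mice and 1, Itga6, lay above 0, with a median of -0.33. After CSE the median was -0.13. Barx2, a homeobox gene of stratified and airway epithelium, fell by 0.51 ± 0.07 (adjusted p = 0.0142). Both called Wnt pathway genes fell: Lgr6, an R-spondin receptor, by 0.36 ± 0.05 (adjusted p = 0.0184) and Sfrp1, a secreted Wnt inhibitor, by 0.80 ± 0.12 (adjusted p = 0.0241). Of the 19 Wnt genes tested, 7 lay above 0 and the median was -0.11.

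The immune and inflammation lists held 1 risen gene each. Cd14, the co-receptor for bacterial lipopolysaccharide, was at 384, 461 and 453 CPM in EpiTF and 309, 311 and 339 CPM in EpiVeh libraries and rose by 0.44 ± 0.07 (adjusted p = 0.0241). Cd14 is on the immune marker list, whose summed level was 452 to 530 CPM in EpiTF and 358 to 395 CPM in EpiVeh libraries. It made up most of that sum, 5 of the 12 markers had counts enough to test, and Ptprc was near 0. Tnf, which encodes the cytokine tumour necrosis factor, was at 15.5, 16.0 and 21.8 CPM in EpiTF and 9.77, 10.6 and 17.2 CPM in EpiVeh libraries. It rose by 0.53 ± 0.10 (adjusted p = 0.0432) and was the only call among 24 chemokine, cytokine and adhesion genes, of which 17 lay above 0 with a median of 0.22. In the same list Cxcl1 had 0.37 ± 0.11 and Csf3 -0.38 ± 0.08, neither called. Slc7a11, the cystine transporter of the NRF2 response, rose by 0.54 ± 0.08 and was the call among 14 NRF2 genes, of which 8 lay above 0 with a median of 0.01. Noxo1, Duox2 and Cyba, which belong to NADPH oxidases, rose by 0.66 ± 0.12, 0.77 ± 0.11 and 0.40 ± 0.06. Glrx, glutaredoxin, rose by 0.33 ± 0.06 and Cfb, complement factor B, by 0.55 ± 0.09. These 5 are in no list and were named after their values were seen. Noxo1 and Cfb had folds of the other sign after CSE, -0.06 ± 0.19 and -0.27 ± 0.25.

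Genes of TGF-beta handling moved in both directions. Tgfbr1, the type 1 receptor, was at 161, 180.2 and 153 CPM in EpiTF and 124, 135 and 128 CPM in EpiVeh libraries, without overlap, and rose by 0.35 ± 0.05 (adjusted p = 0.0241). Itgb6, an integrin subunit that activates latent TGF-beta, rose by 0.39 ± 0.07 (adjusted p = 0.0432). Ltbp1 and Ltbp4, which hold latent TGF-beta in the matrix, fell by 0.32 ± 0.05 and 0.33 ± 0.06. Of 20 genes of the TGF-beta and activin list, Tgfbr1 and Ltbp1 were called, 10 lay above 0 and the median was -0.01. Has2, a hyaluronan synthase, rose by 0.41 ± 0.07, Procr, the protein C receptor, by 0.48 ± 0.07, and Rdh10, which makes retinal for retinoic acid, by 0.46 ± 0.06. The ERK-induced genes Dusp5 and Phlda1 rose by 0.32 ± 0.05 and 0.35 ± 0.06. They were the calls among 18 ERK feedback and early response genes, of which 8 lay above 0 with a median of -0.07, 6 higher and 7 lower in all 3 mice.

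Acta2, Col12a1 and Islr, genes of mesenchymal cells, fell with the drugs, beside a lower mean log2 level of fibroblast genes in 2 of 3 mice. The mean log2 CPM of 29 fibroblast genes was 4.12, 4.25 and 3.56 in EpiTF and 4.13, 4.78 and 3.92 in EpiVeh libraries, near level in mouse 1 and lower with the drugs in mice 2 and 3. The summed level of 12 fibroblast identity genes was 70.9 to 119 CPM in EpiTF and 86.0 to 173 CPM in EpiVeh libraries, all 12 with counts in each group. That of 20 fibroblast matrix genes was 5304, 6832 and 4740 CPM in EpiTF and 5294, 6588 and 5085 CPM in EpiVeh libraries. This sum was near level in mouse 1, higher with the drugs in mouse 2 and lower in mouse 3. Acta2, smooth muscle actin, was at 1.87, 3.50 and 1.51 CPM in EpiTF and 4.96, 7.02 and 4.78 CPM in EpiVeh libraries and fell by 1.34 ± 0.18 (adjusted p = 0.0142). It was the call among 10 contractile genes, whose median was -0.24 with 1 lower in all 3 mice, and whose summed level was 414 to 434 CPM in EpiTF and 362 to 448 CPM in EpiVeh libraries. Col12a1, a collagen, and Islr, a surface protein of mesenchymal cells, fell by 0.59 ± 0.09 and 1.16 ± 0.20. Col1a1 was at 48.6, 53.7 and 28.3 CPM in EpiTF and 53.1, 98.7 and 46.0 CPM in EpiVeh libraries, -0.56 ± 0.18 on the log2 scale (adjusted p = 0.430). The medians were -0.47 over 18 fibroblast matrix genes and -0.39 over 11 fibroblast identity genes, with 0 called in both and 14 of the 18 lower in all 3 mice. In bulk RNA, fewer cells of a type and less RNA per cell cannot be told apart. With the fibroblast mean as a covariate beside the mouse block in the 12-library fit, all 110 genes kept their sign. So did 78.5% of all genes with folds above 0 in the paired fit and 80.4% of those with folds below 0. The covariate fit holds the same 6 libraries from which the 110 were called, so it is no separate reading of them. The sizes of the 110 moved by more than 1.5 times in 26 of them, 22 toward 0 and 4 away from it. Beside the 4 airway genes given above, these included Islr at -0.65 ± 0.23, Krt23 at 0.40 ± 0.21, Ceacam1 at 0.29 ± 0.10, Cd14 at 0.27 ± 0.06 and Ltbp1 at -0.21 ± 0.07, and, away from 0, Tff2 at 0.95 ± 0.30 and Barx2 at -0.78 ± 0.30. Of the 65 higher genes 52, and of the 45 lower genes 30, had an unadjusted p under 0.05 in the covariate fit. Over all genes, 490 of 8647 with paired folds above 0 and 574 of 8448 below 0 had it in the same direction. In the covariate fit 5 genes passed adjustment: Pyy, AW112010, Ctse, NewGene_2237 and Procr. The part of carried-over fibroblast RNA in the falls was otherwise not tested.

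**Figure D4:**
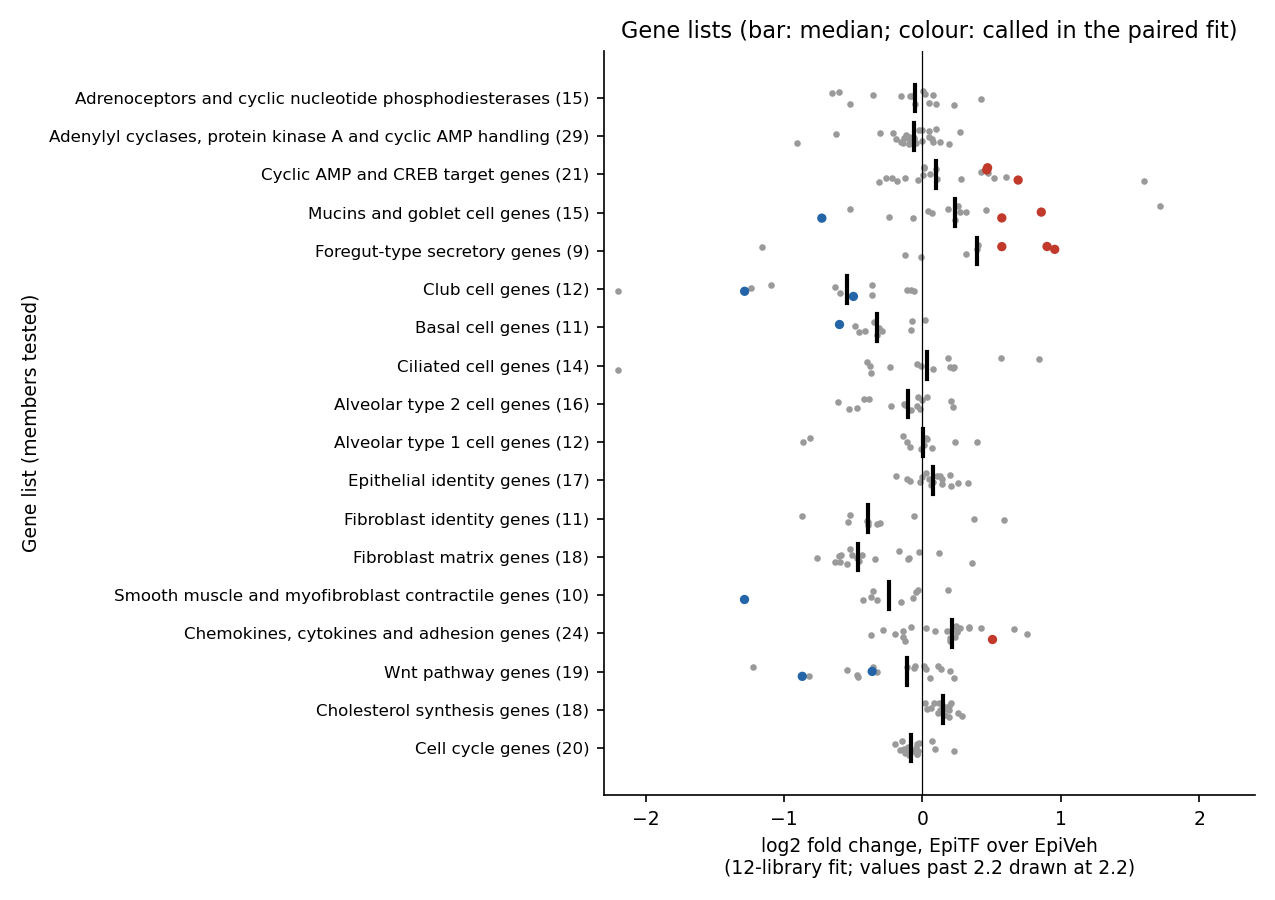
Log2 fold changes of list members, EpiTF over EpiVeh, in the 12-library fit, with the number tested in brackets and black bars at medians; red and blue points were called higher and lower in the paired fit. Foregut-type and mucin genes lie mostly right of 0 and club, basal and fibroblast genes left of it, with medians of 0.39, 0.23, -0.55, -0.33 and, for fibroblast matrix, -0.47. The lists were written with earlier results of these data known.

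Most other gene groups had medians near 0 and no called member. Alveolar type 2 genes had a median of -0.10 over 16 members with none called, and Sftpc, the surfactant protein that defines these cells, was at 9.85, 8.23 and 5.45 CPM in EpiTF and 9.70, 19.3 and 5.19 CPM in EpiVeh libraries. The medians of alveolar type 1 and ciliated cell genes were 0.00 over 12 and 0.03 over 14 members. Epithelial identity genes had a median of 0.075 over 17 and none called. Cell cycle genes had -0.08 over 20, with Mki67, a gene of dividing cells, at -0.07 ± 0.11. All 18 cholesterol synthesis genes lay above 0, with a median of 0.15, 10 higher in every mouse and none called. Hmgcs1, an enzyme early in the pathway, had 0.29 ± 0.08 (adjusted p = 0.208). After CSE the median of the list was 0.03, and without EpiVeh library 2, with EpiTF library 2 kept, it was 0.00. Interferon-stimulated genes had a median of -0.02 over 18, clock genes 0.01 over 19 and unfolded protein response genes 0.08 over 17, again with none called.

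Among the genes with the smallest unadjusted p in the 12-library fit whose groups did not overlap, 10 were taken in each direction. The higher 10 were Pyy, Bmp2, Ccdc83, Olfm4, Nr4a2, Procr, Areg, Gsap, Pvr and Tgfbr1, and the lower 10 were Cpt1b, Acta2, Foxp1, Cyp4f15, Jun, Arntl, Ttyh2, Fmo2, Sema4c and Arhgef10. Bmp2, a growth factor that DESeq2 called too, was at 1.68, 2.15 and 2.35 CPM in EpiTF and 0.888, 0.968 and 0.861 CPM in EpiVeh libraries, 1.18 ± 0.24 in the paired fit (adjusted p = 0.0761). Pvr, a nectin-like adhesion receptor, was at 98.5, 104 and 108 CPM in EpiTF and 83.6, 71.0 and 87.5 CPM in EpiVeh libraries and rose by 0.37 ± 0.07 (adjusted p = 0.0432). Jun, a subunit of the AP-1 transcription factor, was at 265, 314 and 307 CPM in EpiTF and 400.4, 579.8 and 382 CPM in EpiVeh libraries. Its log2 fold change was -0.59 ± 0.11, and it was not called (adjusted p = 0.0869), nor was the clock activator Arntl at -0.49 ± 0.11 (adjusted p = 0.107). Sema4c, a semaphorin, fell by 0.38 ± 0.06 (adjusted p = 0.0241), with 58.6, 61.9 and 65.2 CPM in EpiTF and 74.3, 87.9 and 80.3 CPM in EpiVeh libraries. Gm28048, which DESeq2 called, had counts in 1 of the 6 libraries only, at 2.28 CPM in EpiVeh library 1.

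The 110 genes were then read in libraries that the paired fit had not used, where most kept their direction. With the drugs after CSE (EpiCSETF against EpiCSE, the same 3 mice), 61 of the 65 higher genes had folds above 0 (93.8%), with a median of 0.41, and 39 of the 45 lower genes folds below 0 (86.7%), with a median of -0.40. Over all genes of the paired fit the shares were 60.2% of those with folds above 0 and 63% of those with folds below 0. An unadjusted p under 0.05 in the same direction was found for 26 of the 65 and 8 of the 45. In the Epcam-negative fraction of the same cultures, in which Epcam averaged 555 CPM with the drugs and 427 CPM with vehicle, 59 of the 65 (90.8%) and 40 of the 45 (88.9%) had the same sign, against 64 and 59.3% of all genes, with medians of 0.60 and -0.20. The difference of the drug effect without and after CSE was called for 0 of 18038 genes (0%), with an unadjusted p under 0.05 for 7 of the 110. The difference between fractions was called for 0 of 19142 genes (0%), with 6 of the 110 under that p. DESeq2 called 1 gene for each difference, NewGene_2865 for that with CSE and Gm28048 for that between fractions. At an unadjusted p under 0.05 the edgeR fits gave 207 genes for the difference with CSE and 391 for that between fractions.

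**Figure D5:**
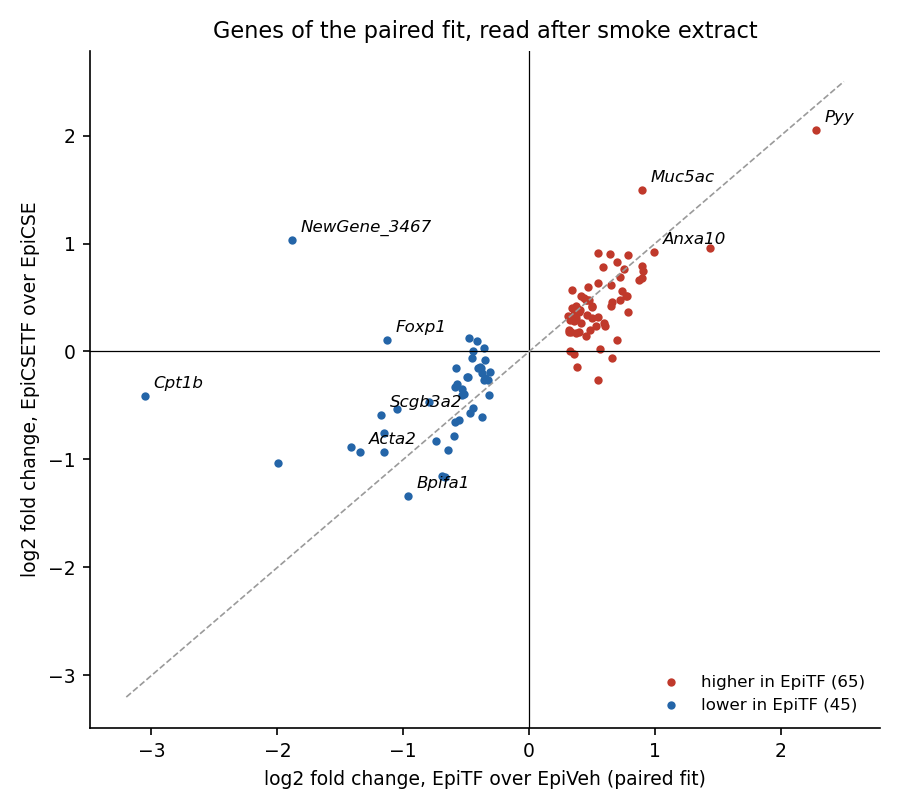
Log2 fold changes of the 110 called genes, EpiTF over EpiVeh in the paired fit across and EpiCSETF over EpiCSE upward, with the line of equal folds dashed. Of the red points (higher in EpiTF) 61 of 65 lie above 0 and of the blue points (lower) 39 of 45 below it, with Foxp1 and NewGene_3467 among the exceptions.

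An exception was Foxp1, a forkhead transcription factor of lung epithelium. It was at 12.7, 14.5 and 13.7 CPM in EpiTF and 29.6, 28.2 and 31.6 CPM in EpiVeh libraries, a fall of 1.13 ± 0.08 (adjusted p = 0.000514) with no overlap. After CSE it was at 25.0, 27.3 and 29.4 CPM in EpiCSETF and 13.0, 34.0 and 29.2 CPM in EpiCSE libraries, 0.10 ± 0.26 on the log2 scale, and the EpiCSE library of mouse 1 was as low as those of EpiTF. The difference between both drug effects had an unadjusted p of 0.00705 in edgeR and was not called (adjusted p = 1). Cpt1b, a carnitine transferase of muscle mitochondria, fell to 0.276, 0.0860 and 0.164 CPM in EpiTF libraries, against 1.32, 0.654 and 2.88 CPM in EpiVeh libraries. It was at 2.01, 1.96 and 0.311 CPM in EpiCSETF and 1.64, 1.73 and 2.34 CPM in EpiCSE libraries. The flavin monooxygenase gene Fmo2 fell by 0.41 ± 0.06, with -0.15 ± 0.11 after CSE.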

How the data were processed

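The deposited values are raw read counts per gene for 24 libraries, whole numbers not normalized by the authors, per the file headers, over 49280 features, of which 5941 are loci named NewGene. Adapter trimming with Trimmomatic 0.30 and DESeq2 are named in the submitters' processing notes. Per the labels' protocols the mouse reference was called GRCh38.p14, a name that belongs to a human assembly, so the build is not settled. The sources used here do not give the aligner, counter or strand setting, so reads of overlapping or antisense genes cannot be told apart and no coordinates of the counts are printed. The 6 libraries compared here held 35871849 to 47534709 counts.

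Counts were scaled by TMM, filtered with filterByExpr by group and tested with edgeR 4.0.16 (robust quasi-likelihood, R 4.3.3). Adjustment over all genes tested was by the Benjamini-Hochberg method, and genes with an adjusted p under 0.05 were called. The main fit took the 12 epithelial libraries as 4 group means (8 residual degrees of freedom). Other fits added the mouse as a block (6), took the 6 libraries alone with the block (2), added the mean log2 CPM of 29 fibroblast genes as a covariate, or used DESeq2 1.42.0, other scalings and filters. The SE is the log2 fold change over the square root of F. CPM are TMM-scaled over the 12 libraries.

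The labels give libraries of 1 mouse the same batch name, and this name, taken as the donor animal, is the source of the pairing; the labels do not say what else a batch shared. Deviations from the group means correlated at 0.175 to 0.382 between EpiTF and EpiVeh libraries of the same mouse, and at -0.341 to -0.006 between those of different mice. Deviations within a group sum to 0, so these ranges are not independent. Over the 4 epithelial groups the 18 same-mouse pairs ran from 0.011 to 0.504. Among pairs of different mice, EpiCSETF library 1 and EpiVeh library 3 correlated at 0.252. With 3 mice a group, P-values of the fits without the block measure the spread between these animals' cultures. Those of the paired fit measure how the difference within a mouse varied over the 3 mice, with a spread shared across genes.

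Genes were named by 3 rules: those called in the 12-library fits or by DESeq2, the 10 with the smallest p in each direction whose groups did not overlap, and members of 34 lists. The genes called in the paired fit and in no list were named after their values were seen. All members and lists were chosen with earlier results of these data known. Promoter windows came from RefSeq (GRCm38.p6), matched by symbol. Some genes are not reported here.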

Additional observations from a re-analysis of the deposited data

How the results depend on the processing

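For the drugs against vehicle, the 12-library fit called 0 genes, and 0 with RLE scaling or at least 1 CPM in 3 libraries. It called 1 with the replicate block, 1 without a filter on low counts and 1 with the fibroblast covariate (Pyy each time), 5 with the covariate and the block, and 5 with DESeq2. Leaving out replicates or single libraries gave 0 without the block and 0 to 1 with it, those with it being chosen after seeing the data. The 6 libraries alone gave 110 genes with the replicate block and 2 without it (Pyy and Foxp1). Of fits around the 110, also chosen after seeing the data, RLE scaling gave 108, at least 1 CPM in 3 libraries 111, no filter 58 (54 shared), DESeq2 with the block 244 (109 shared), and leaving out a mouse 1 to 341. The difference of the drug effect with CSE was called for 0 genes with the replicate block, for 1 by DESeq2 and for 0 to 1 with a library left out (Phc3, without EpiCSETF library 3). That between fractions was called for 0 with the replicate block, for 1 by DESeq2 and for 0 with any library left out. The causes of these changes were not tested. No result of the tables changed sign under an alternative while called. Below about 1 CPM, differences of single genes were set by few reads, and 3 mice with 2 residual degrees of freedom limit the paired calls.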

Other observations

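Ion and fluid transport genes were mixed. Slc26a9, a chloride channel of airway and stomach epithelium, was at 21.1, 14.5 and 15.6 CPM in EpiTF and 30.1, 26.3 and 20.1 CPM in EpiVeh libraries and fell by 0.58 ± 0.10 on the log2 scale (adjusted p = 0.0432 in the paired edgeR fit). It was the call among 16 members, of which 7 lay above 0. Among 16 xenobiotic metabolism genes none was called. Cyp2b10, a cytochrome P450 induced by foreign compounds, was at 7.49, 6.14 and 5.83 CPM in EpiTF and 3.85, 4.48 and 3.01 CPM in EpiVeh libraries, 0.79 ± 0.16 on the log2 scale (adjusted p = 0.0743). Sprr2f, a cornified envelope protein, rose by 1.43 ± 0.22 (adjusted p = 0.0251), while 17 squamous genes had a median of -0.04 and none called.

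Levels of Foxp1 and Cpt1b differed between single libraries outside this comparison as well. In the Epcam-negative fraction Foxp1 was at 27.7, 39.4 and 24.8 CPM with the drugs and 51.3, 44.1 and 26.1 CPM with vehicle. Cpt1b was there at 0.464, 2.00 and 2.30 CPM with the drugs and 2.67, 1.62 and 0.121 CPM with vehicle. Among the 110 called genes, 8 were predicted genes or NewGene loci, with NewGene_6409 at 1.15, 1.35 and 1.37 CPM in EpiTF and 4.10, 4.09 and 8.01 CPM in EpiVeh libraries.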
